A study of Mus musculus with 6 samples.

Results

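The IGF binding protein family was examined in RNA-seq counts of whole mouse embryos at E10.5 (mid-gestation). All 7 *Igfbp* genes (*Igfbp1* to *Igfbp7*) were taken by symbol from a table of 55401 Ensembl genes, whatever their values. WT embryos carried the unmodified *Igf2* locus. 5C embryos carried an array of 5 *Mir483* copies in tandem at the endogenous *Igf2* locus, the gene that hosts this microRNA. The 5C embryos descended from chimeric fathers, and WT embryos were littermates of the same stage, and no treatment is named for either genotype. There were 3 libraries of each genotype, and every library pooled 2 embryos given as male in the study's methods. Per the methods, the array was exchanged into the locus in ES cells and its Neo cassette was removed there with Cre, and how many ES clones the embryos come from is not given in the sources used here. Whole embryos were pooled, so no tissue is resolved.

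IGF binding proteins are secreted proteins that bind IGF1 and IGF2 with high affinity, keep them from the IGF1 receptor, and carry or store them in blood and matrix. Proteases that cut the binding proteins release the ligands again. IGFBP7 binds IGFs with much lower affinity than the other members.

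Because the 5C array raises a microRNA, its 2 mature sequences and their seed matches in the family are shown first. Sequences are from RefSeq on GRCm38.p6, 5′ to 3′, with the seed (bases 2 to 8) in capitals.
mmu-miR-483-3p: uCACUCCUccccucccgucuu
mmu-miR-483-5p: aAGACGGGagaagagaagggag
The 3′ UTR of the longest coding transcript of each *Igfbp* gene was searched on its sense strand for the reverse complement of each seed, AGGAGTG for miR-483-3p and CCCGTCT for miR-483-5p. The miR-483-3p match occurred once in *Igfbp3*, once in *Igfbp5* and in none of the other 5 genes, and the miR-483-5p match occurred in none of the 7. Both places are shown with 10 bases on each side and the match in capitals, since they are the matches found in the 3′ UTRs searched. Coding sequence, 5′ UTRs and other transcripts were not searched.
*Igfbp3* (chr11:7206581-7206607, minus strand): aacaggaaagAGGAGTGgcttgtctga
*Igfbp5* (chr1:72858849-72858875, minus strand): agcttaagagAGGAGTGagccaaggag
The match began at base 924 of the 1435 bases of the *Igfbp3* 3′ UTR and at base 3512 of the 4445 bases of that of *Igfbp5*. Of 20945 annotated 3′ UTRs, 10.53% held the miR-483-3p match and 2.67% the miR-483-5p match. Among 3′ UTRs of 0.8 to 1.25 times the same length, 27.8% of 1350 held the miR-483-3p match for *Igfbp5* and 10.53% of 3058 for *Igfbp3*. A match describes letters and does not mark a bound site.

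The 7 genes lie on 4 chromosomes of GRCm38, with 2 pairs of neighbours that face each other tail to tail. On chromosome 1, *Igfbp2* (ENSMUSG00000039323, 72824503 to 72852474, plus strand) and *Igfbp5* (ENSMUSG00000026185, 72857932 to 72874884, minus strand) are 5457 bases apart. On chromosome 11, *Igfbp1* (ENSMUSG00000020429, 7197782 to 7202546, plus strand) and *Igfbp3* (ENSMUSG00000020427, 7206086 to 7213923, minus strand) are 3539 bases apart. *Igfbp4* lies on chromosome 11 (ENSMUSG00000017493, 99041244 to 99054392, plus strand), with *Top2a* and *Tns4* on its sides. *Igfbp6* lies on chromosome 15 (ENSMUSG00000023046, 102144362 to 102149511, plus strand), between *Spryd3* and *Soat2*. *Igfbp7* lies on chromosome 5 (ENSMUSG00000036256, 77349240 to 77408041, minus strand), and 85 of its exon bases are under exons of *Polr2b* on the other strand. No member shared exon bases with a gene on its own strand.

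Libraries held 6357343 to 19151368 counts, and a count of 3 in a library corresponded to 0.157 to 0.479 CPM (counts as a share of the scaled counts of tested genes, times 1e+06). The targeted gene, *Mir483*, was at 0.319 to 0.577 CPM across WT and at 2.56 to 5.15 CPM across 5C. Its WT values rest on 11, 5 and 2 counts, the last below a count of 3. These are reads of mRNA libraries over the gene, and mature miR-483 was not measured in them. All listed markers of neural tube (4), heart (4), somite and limb (5) and primitive red cells (4) passed the filter on low counts, so transcripts of these embryo tissues were present, as the label whole embryo has it. Some libraries stood apart. WT replicate 1 had 6284 CPM summed over 9 markers of yolk sac visceral endoderm, against 177 to 1263 CPM in the other 5. WT replicate 3 had 399 CPM of *Tbx4*, a hindlimb gene, against 5.48 to 9.39 CPM elsewhere. *Ddx3y*, a Y-linked gene, was at 0.944 CPM in WT replicate 2 and 0 CPM in 5C replicate 2 against 41.6 to 55.9 CPM in the other 4 libraries, although the methods give male embryos. *Xist*, transcribed from the inactive X of female cells, was at 495 to 914 CPM in all 6 libraries, so the 4 with *Ddx3y* held *Xist* too. P-values measure only the spread between pools.

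The family was dominated by a few members whose order was the same in every library. Levels between genes are given per length, as RPKM (CPM per kilobase of annotated exon). *Igfbp2*, a carrier of both IGFs that is widely made in embryos, lay at 86.6 to 107 RPKM over the 6 libraries. *Igfbp4*, a binding protein cut by the protease PAPPA, lay at 50.3 to 61.9 RPKM. *Igfbp5*, which binds extracellular matrix, lay at 16.8 to 29.5 RPKM, and *Igfbp3*, the main carrier of IGFs in adult blood, at 9.77 to 13.0 RPKM. These 4 held ranks 1 to 4 in this order in all 6 libraries, and no 2 of their ranges overlapped. *Igfbp7* followed at 1.06 to 1.91 RPKM. *Igfbp1*, a liver product in adults, ranged from 0.119 to 2.03 RPKM and *Igfbp6*, which prefers IGF2, from 0.143 to 0.691 RPKM. The ranges of *Igfbp1* and *Igfbp6* overlapped each other and that of *Igfbp1* also overlapped *Igfbp7*, because *Igfbp1* was above *Igfbp7* in WT replicate 1.

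**Figure D1:**
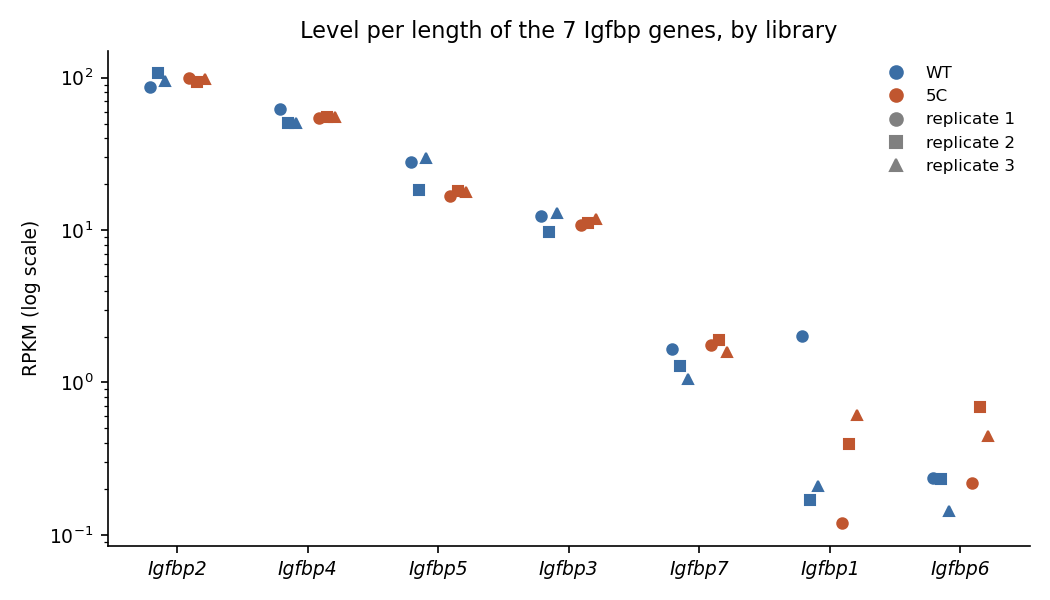
Level per length (RPKM, log scale) of each *Igfbp* gene in each library, WT in blue and 5C in orange, with a symbol for each replicate number. *Igfbp2*, *Igfbp4*, *Igfbp5* and *Igfbp3* keep their order in all 6 libraries, and *Igfbp1* in WT replicate 1 lies above the other *Igfbp1* points.

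Among 16770 tested genes with a length, the mean RPKM of *Igfbp2* was at percentile 98.1, that of *Igfbp4* at 95.7, *Igfbp5* at 84.7, *Igfbp3* at 71.0 and *Igfbp7* at 26.7. Summed over the 7 genes, the family held 193, 187 and 189 RPKM in WT and 183, 181 and 185 RPKM in 5C. *Igfbp2*, *Igfbp4* and *Igfbp5* together made 91.5% to 93.9% of that sum in each library. The share of *Igfbp2* was 50.7% ± 6.15 (SD, n = 3) in WT and 52.9% ± 1.37 in 5C, and that of *Igfbp4* was 28.6% ± 3.03 in WT and 29.5%, 30.6% and 29.9% in the 5C libraries. *Igfbp5* took 13.3% ± 3.16 of the sum in WT and 9.59% ± 0.392 in 5C, and *Igfbp3* took 6.18% ± 0.866 and 6.13% ± 0.229.

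To ask whether extra *Mir483* goes with another level of any binding protein, 5C was compared with WT in 1 edgeR quasi-likelihood fit over 16784 genes. Of the 7 members 5 passed the filter on low counts, and *Igfbp1* and *Igfbp6* did not. *Igfbp5* alone had an unadjusted p under 0.05, and no member had an adjusted p under 0.05. Over all genes tested 6.02% had an unadjusted p under 0.05, 3.47% in the direction of lower 5C values, and 0% were DEGs (adjusted p under 0.05 and fold change over 1.5). Genotypes did not overlap in CPM in 11.4% of all genes tested and in 1 member, *Igfbp5*. The median log2 fold change was 0.01 over the 5 members and 0.00 over all genes, and lower calls were 583 of 1011, but 445 of 1050 when libraries were scaled by their size alone.

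*Igfbp5* measured 169, 109.2 and 177 CPM in the WT libraries and 101, 108.3 and 107 CPM in the 5C libraries. WT replicates 1 and 3 were high, and WT replicate 2 lay beside the 5C libraries. All 5C values were below all WT values, but WT replicate 2 and 5C replicate 2 differed by less than their counting error, since the 95% Poisson interval was 103 to 115 CPM in the first and 102 to 114 CPM in the second. The mean was 152 ± 37.1 CPM across WT and 105.5 ± 3.98 CPM across 5C (SD, n = 3). The log2 fold change came to -0.52, standard error 0.15, with a 95% interval from -0.87 to -0.18, or a fold of 0.696. The unadjusted p was 0.00711, at place 97 among all genes, and the adjusted p over all genes was 0.781 by edgeR, so the difference did not pass the test. The exact two-sided permutation p was 0.1, the smallest that 3 against 3 libraries can give. Leaving out WT replicate 2 gave -0.71 with an adjusted p of 0.0666 in edgeR, and leaving out replicate 2 of both genotypes gave -0.73 with an adjusted p of 0.518. A fit with no count filter, which tested 33139 genes, gave -0.51 with an adjusted p of 2.7e-07.

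**Figure D2:**
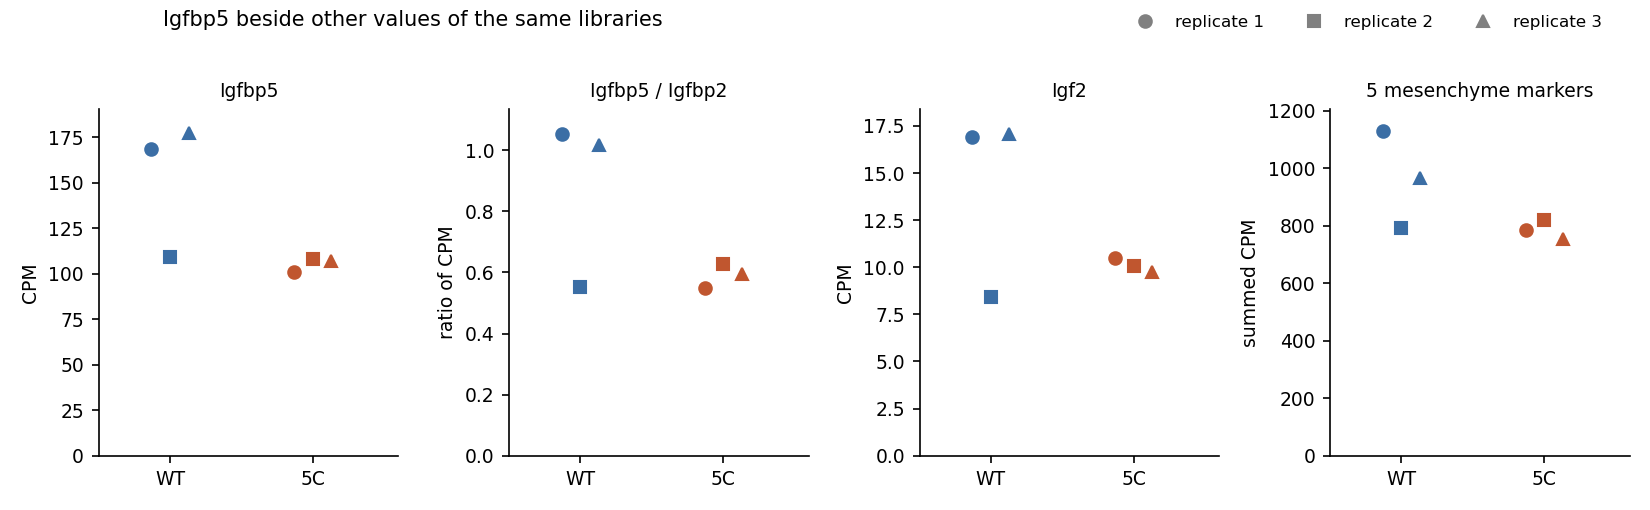
Values by library of *Igfbp5* (CPM), *Igfbp5* per *Igfbp2* (ratio of CPM), *Igf2* (CPM) and 5 smooth muscle and mesenchyme markers (summed CPM), WT in blue and 5C in orange, with a symbol for each replicate number. In each panel WT replicates 1 and 3 are the highest points and WT replicate 2 lies among or next to the 5C libraries. The counts of *Igf2* are uncertain, since its exons overlap *Gm49394* on the same strand.

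Per library, the ratio of *Igfbp5* to *Igfbp2* was 1.055, 0.553 and 1.02 in WT and 0.549, 0.626 and 0.596 in 5C, so the genotypes overlapped in this ratio. The 5 markers of smooth muscle and mesenchyme, cells in which *Igfbp5* is made, summed to 1129, 792 and 966 CPM in the WT libraries and 787, 820 and 753 CPM in the 5C libraries. Most of this sum was *Col3a1*, at 553 to 790.2 CPM in WT and 542 to 621 CPM in 5C. The markers differed in their WT order. *Acta2* was at 95.2, 92.9 and 87.1 CPM and *Tagln* at 43.8, 48.0 and 42.1 CPM in WT. All were above their 5C values of 66.5 to 75.2 and 33.9 to 38.9 CPM. *Pdgfrb* was at 66.7, 58.9 and 79.8 CPM in WT and at 52.5 to 59.7 CPM in 5C. *Col1a1* was at 133, 38.5 and 73.5 CPM in WT and at 32.9 to 46.8 CPM in 5C. In *Pdgfrb*, *Col1a1* and *Col3a1*, as in *Igfbp5*, WT replicate 2 was the lowest WT library. All 5 markers were lower in 5C on average, and 4 had an unadjusted p under 0.05 in edgeR, with adjusted p of 0.781 or more. Over all genes tested, 50.7% were lower in 5C, and 3.47% were lower with an unadjusted p under 0.05. The part of smooth muscle and mesenchyme cells in the *Igfbp5* values was not tested. In bulk libraries fewer cells of a type and less RNA per cell cannot be told apart. The 9 visceral endoderm markers, which set WT replicate 1 apart, summed to 6284, 260 and 519 CPM in the WT libraries. They summed to 193, 177 and 1263 CPM in the 5C libraries. Whether visceral endoderm cells have a part in the *Igfbp5* values was not tested either.

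*Igfbp2*, *Igfbp4* and *Igfbp3* showed differences within the spread of the libraries. *Igfbp2* measured 160.0, 198 and 175 CPM in the WT libraries and 184, 173 and 179.8 CPM in the 5C libraries. Its 5C libraries all lay inside the WT range. The log2 fold change came to 0.01, standard error 0.08, and the 95% interval of the fold, 0.889 to 1.15, bounds what the data allow. *Igfbp4* measured 274, 224 and 222 CPM in the WT libraries and 239, 246 and 244 CPM in the 5C libraries, again inside the WT range. Its log2 fold change came to 0.02, standard error 0.09, with an interval from -0.18 to 0.21. *Igfbp3* measured 39.0, 30.6 and 40.7 CPM in the WT libraries and 33.8, 34.9 and 36.7 CPM in the 5C libraries. Its log2 fold change came to -0.06, standard error 0.11, with an interval from -0.31 to 0.19, and its 5C values too lay inside the WT range. *Igfbp3* and *Igfbp5* both hold the miR-483-3p match shown above, and the difference between their fold changes was not tested. The sign of these small differences of *Igfbp2*, *Igfbp3* and *Igfbp4* depended on which library was left out. Without replicate 2 of both genotypes, the libraries low in *Ddx3y*, *Igfbp3* gave -0.17 and *Igfbp4* -0.041.

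**Figure D3:**
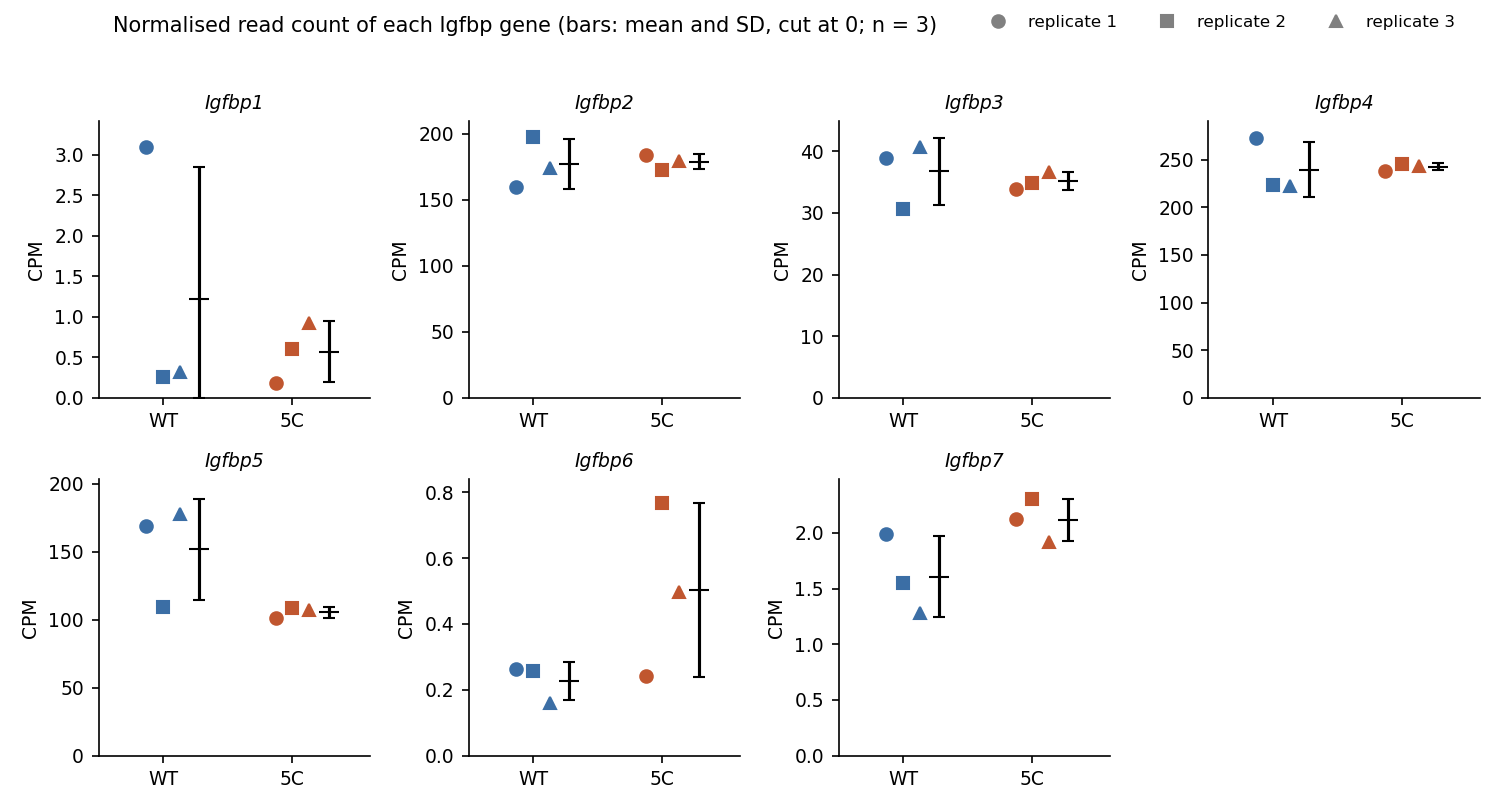
CPM of each *Igfbp* gene by library, WT in blue and 5C in orange, with a symbol for each replicate number and each panel on its own scale. *Igfbp5* is the gene in which no 5C point reaches a WT point, and the 5C points of *Igfbp2*, *Igfbp3* and *Igfbp4* lie within the WT range.

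The 3 abundant genes and *Igfbp3* varied more between WT than between 5C libraries. The coefficient of variation of CPM in WT and in 5C was 10.7% and 3.10% for *Igfbp2*, 12.2% and 1.496% for *Igfbp4*, 24.5% and 3.77% for *Igfbp5*, and 14.7% and 4.19% for *Igfbp3*. Over 6556 tested genes at 30 to 300 CPM the median was 6.57% in WT and 5.89% in 5C, and 55.2% of them varied more in WT. The high WT library was not the same for each gene. It was replicate 2 for *Igfbp2*, replicate 1 for *Igfbp4*, and replicate 3 for *Igfbp3* and *Igfbp5*.

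The other 3 members had few counts. *Igfbp7*, a protein of the vessel wall, had 38, 18 and 8 counts in WT and 35, 27 and 27 in 5C. This was 1.99, 1.55 and 1.28 CPM in the WT libraries and 2.12, 2.31 and 1.92 CPM in the 5C libraries, with WT replicate 1 inside the 5C range. Its log2 fold change came to 0.33, standard error 0.24, and the interval of the fold ran from 0.868 to 1.83. At this depth no difference was detected, and folds within that interval remain possible. *Polr2b*, at 309 to 362 CPM, overlaps *Igfbp7* on the other strand. Whether reads from the shared bases were added to *Igfbp7* or left out depends on how strand was used in counting. The sources do not state this. The 5 endothelium markers summed to 293 to 307 CPM across WT and 278 to 312 CPM across 5C.

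*Igfbp1* was seen mainly in 1 library. It had 59, 3 and 2 counts in WT and 3, 7 and 13 in 5C, or 3.10, 0.258 and 0.319 CPM in the WT libraries and 0.182, 0.598 and 0.925 CPM in the 5C libraries. The 95% Poisson interval was 2.36 to 3.99 CPM in WT replicate 1 and 0.493 to 1.58 CPM in 5C replicate 3, the second highest. Such intervals cover counting error only. The genotypes overlapped, and the exact permutation p was 0.8. In the edgeR fit with no count filter its log2 fold change was -1.37 with an adjusted p of 0.0409, a value in which WT replicate 1 holds nearly all WT counts. WT replicate 1 and 5C replicate 3, highest in *Igfbp1*, were also highest in visceral endoderm markers. The 9 visceral endoderm markers summed to 6284, 260 and 519 CPM in the WT libraries and 193, 177 and 1263 CPM in the 5C libraries, and 7 hepatoblast markers to 245, 74.2 and 114 CPM in the WT libraries and 85.4, 86.7 and 109 CPM in the 5C libraries. The part of these cells in the *Igfbp1* values was not tested.

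**Figure D4:**
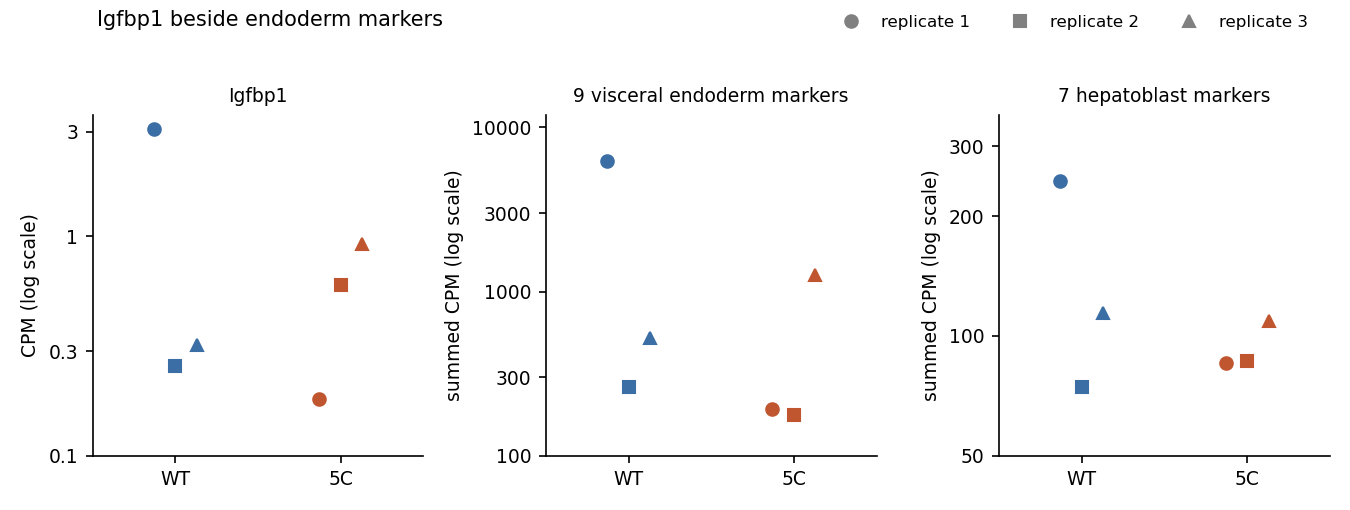
CPM of *Igfbp1*, summed CPM of 9 visceral endoderm markers and summed CPM of 7 hepatoblast markers by library (log scales), WT in blue and 5C in orange, with a symbol for each replicate number. WT replicate 1 is highest in all 3 panels, and 5C replicate 3 is second in the first 2. Outside WT replicate 1, most of the hepatoblast sum is *Dlk1*.

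*Igfbp6* had 5, 3 and 1 counts in WT and 4, 9 and 7 in 5C. These were 0.262, 0.258 and 0.160 CPM in the WT libraries and 0.242, 0.768 and 0.498 CPM in the 5C libraries, where 3 counts are 0.157 to 0.479 CPM. 5C replicate 2, with a 95% Poisson interval of 0.351 to 1.46 CPM, lay above its own 3-count level of 0.256 CPM. The genotypes overlapped, and the gene did not pass the filter for testing. Decidua and uterine killer cell markers, a sign of maternal tissue, summed to 10.4, 9.19 and 46.3 CPM in the WT libraries and 38.1, 10.7 and 43.8 CPM in the 5C libraries. The part of maternal tissue in the *Igfbp1* and *Igfbp6* values was not tested.

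**Figure D5:**
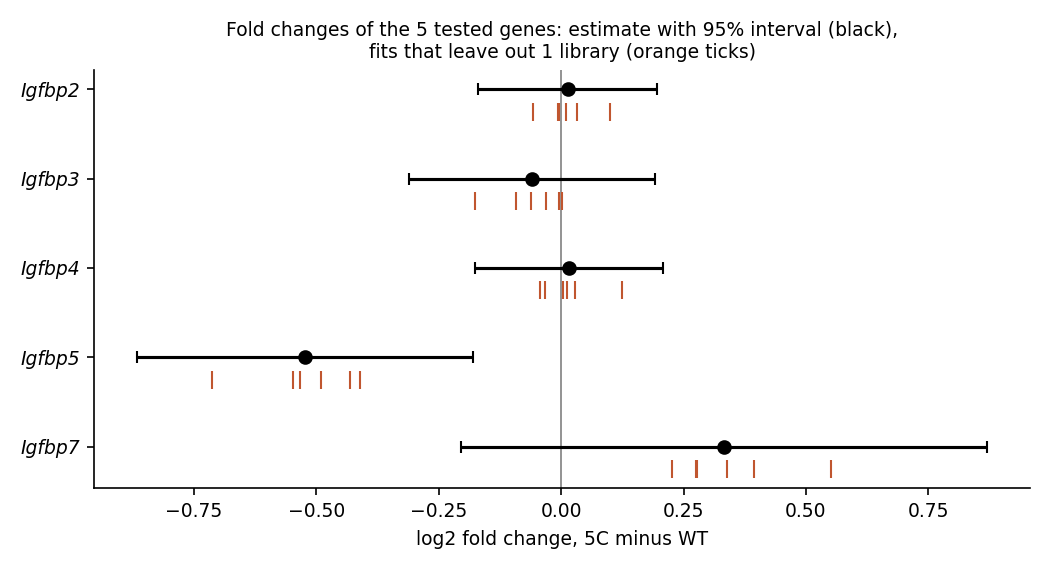
Log2 fold change (5C minus WT) of the 5 tested *Igfbp* genes with its 95% interval (black), and the same value with each library left out in turn (orange ticks). The interval of *Igfbp5* lies below 0, from -0.87 to -0.18, and the intervals of the other 4 include 0.

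The partners of the binding proteins were read from 5 lists with 44 genes in all, of which 33 were tested. Of these 15 were lower and 18 higher in 5C on average, 2 lower and 1 higher had an unadjusted p under 0.05, and none had an adjusted p under 0.781, so none passed the test. Over all genes tested, 6.02% had an unadjusted p under 0.05 in edgeR, and 3.47% were such genes with lower 5C values. Among ligands, *Igf1* measured 77.5, 63.7 and 72.9 CPM in the WT libraries and 73.4, 96.9 and 77.2 CPM in the 5C libraries, with a log2 fold change of 0.21 (standard error 0.12). It was 0.071 without 5C replicate 2, 0.087 with GC-content offsets and -0.0012 without replicate 2 of both genotypes. *Igf2* measured 16.9, 8.41 and 17.1 CPM in the WT libraries and 10.48, 10.1 and 9.75 CPM in the 5C libraries, so WT replicate 2 was the lowest library. Its log2 fold change came to -0.48, standard error 0.24. The counts of *Igf2* are uncertain because 3596 of its 5723 exon bases lie under *Gm49394* on the same strand. Reads from those bases may be missing, so the *Igf2* level is not comparable with that of *Igf1*. Without WT replicate 2 the *Igf2* value was -0.75 (unadjusted p of 2.2e-04 in edgeR), without WT replicate 1 it was -0.28 (0.289), and without replicate 2 of both genotypes it was -0.75 (0.0019). In these uncertain counts *Igf2* had the WT pattern of *Igfbp5*, with replicates 1 and 3 high.

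Of 4 receptors, 3 were lower and 1 higher on average, and *Igf2r*, which takes up IGF2 for degradation, had the single unadjusted p under 0.05, at 0.0092 in edgeR. It measured 484 ± 54.9 CPM across WT and 393 ± 29.0 CPM across 5C (SD, n = 3), with a log2 fold change of -0.30 (standard error 0.09) and no overlap of the genotypes. Of 16 genes of binding protein proteases, their inhibitors and the ternary complex subunit, 11 were tested, 4 lower and 7 higher, and none had an unadjusted p under 0.05. The smallest p were those of *Plg*, the precursor of plasmin, and *Ctsd*, a lysosomal protease, with log2 fold changes of -1.70 and -0.13 and standard errors of 0.98 and 0.08. Without WT replicate 1 the value of *Plg* was 1.30. *Plg*, a liver product, was at 20.6 CPM in WT replicate 1 and at 0.773 to 4.98 CPM in the other 5 libraries.

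Of 13 other secreted proteins with an IGFBP domain, 9 were tested, 3 lower and 6 higher. *Esm1*, an endothelial proteoglycan, measured 2.10 ± 0.0488 CPM across WT and 2.86 ± 0.0465 CPM across 5C, with a log2 fold change of 0.44 (standard error 0.19) and an unadjusted p of 0.0448 in edgeR. That p was 0.0773 to 0.0985 with any 1 library left out, 0.082 with the replicate block, 0.0619 with robust moderation, 0.0714 with GC-content offsets and 0.236 by DESeq2. Of 8 surface and matrix partners, all tested, 4 were lower and 4 higher. *Lrp1*, an endocytic receptor that binds IGFBP3, measured 195 ± 17.0 CPM across WT and 167 ± 2.34 CPM across 5C, with a log2 fold change of -0.22 (standard error 0.07) and an unadjusted p of 0.0137 in edgeR, which was 0.0562 without WT replicate 3 and 0.0513 with GC-content offsets. The adjusted p of each of these genes was 0.781 or more.

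For each tested member the 3 genes with the most similar pattern were found among 15925 genes, by the root-mean-square difference of centred log2 CPM over 6 libraries. Nearest to *Igfbp5* were *Creb3l2*, *Sec14l2* and *Mlxipl*, with differences of 0.059, 0.062 and 0.064 on the log2 scale, against a standard deviation of 0.36 of *Igfbp5* itself. Nearest to *Igfbp2* were *Stn1*, *Gpn2* and *Mkrn3*, to *Igfbp3* *Gm38042*, *Cnot4* and *Fndc3b*, to *Igfbp4* *Iqce*, *Abcd3* and *Celsr1*, and to *Igfbp7* *Gm37477*, *Tm4sf1* and *Erap1*. Their differences lay between 0.011 and 0.059. With 6 libraries and this many genes, near patterns are a description of these libraries.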

How the data were processed

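RNA-seq was performed on whole E10.5 embryos, 3 libraries per genotype, each a pool of 2 male embryos per the study's methods. The authors made stranded mRNA libraries and aligned their reads to GRCm38 with STAR. The deposited values are raw whole-number counts of reads for every Ensembl gene. Which strand column was taken is not given in the sources used here. Genotype and replicate number came from the titles.

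edgeR 4.0.16 under R 4.3.3 was used on the counts. After filterByExpr and TMM scaling, genotypes were compared with the quasi-likelihood F-test (legacy form, two-sided), with Benjamini-Hochberg adjustment over 16784 genes. A standard error is the absolute log2 fold change over the square root of F, and CPM were taken on TMM-scaled totals. Exon lengths, positions and 3′ UTRs came from GENCODE of GRCm38, in which 55141 of 55401 identifiers matched. The self-test on simulated counts is not quoted. The smallest chi-square per gene between 2 libraries was 5.83, so no library was counted as a copy.

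Members, lists and tests were chosen with earlier results of these data known. Named genes were the 7 members, *Mir483*, *Igf1*, *Igf2*, list members with an unadjusted p under 0.05 (otherwise the 2 smallest p), the 3 nearest patterns per member (mean of at least 1 CPM, log2 of CPM plus 0.5) and neighbours. *Tbx4*, *Ddx3y*, *Xist*, *Polr2b*, *Gm49394*, *Acta2*, *Tagln*, *Pdgfrb*, *Col1a1* and *Col3a1* were added with their values in view. Alternatives tried were scalings, filters, DESeq2 1.42.0, limma-voom 3.58.1, robust and newer edgeR forms, the replicate number as block, GC-content offsets, mitochondrial and globin genes removed, each library left out, and, added after seeing the data, both libraries with low Y-linked transcripts left out or given a term. Deviations of same-numbered libraries correlated between -0.222 and 0.220, and those of the other pairs between -0.236 and 0.334. The first range lies inside the second, so these values cannot decide whether equal numbers mark paired libraries.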

Additional observations from a re-analysis of the deposited data

How the results depend on the processing

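*Igfbp5* had an unadjusted p under 0.05 in all 20 alternatives, with log2 fold changes between -0.73 and -0.41. It passed an adjusted p of 0.05 only with no count filter (-0.51, adjusted p 2.7e-07), and DESeq2 gave an adjusted p of 0.0655. Leaving out 1 library gave -0.71 to -0.41. The members with an unadjusted p under 0.05 were 2 with no count filter, where *Igfbp1* was added, and 1 to 2 with a library left out. The unfiltered *Igfbp1* fit gave -1.37 (adjusted p 0.0409) and rests on WT replicate 1, which held 59 counts against 3 and 2 in the other WT libraries. Leaving out 1 library gave -0.057 to 0.10 for *Igfbp2*, -0.18 to 0.00 for *Igfbp3* (0.0021 at most), -0.043 to 0.12 for *Igfbp4*, 0.23 to 0.55 for *Igfbp7*, 0.071 to 0.28 for *Igf1*, -0.75 to -0.28 for *Igf2* and -2.62 to 1.30 for *Plg*. Without both libraries with low Y-linked transcripts, *Igfbp4* was -0.041 and *Igf1* -0.0012, and lower calls were 690 of 886. DEGs numbered 319 with no count filter, 11 by DESeq2, 3 with robust moderation and 0 to 1 with a library left out, against 0. Pathway genes with an unadjusted p under 0.05 numbered 10 with no filter and 2 to 6 with a library left out (6 without WT replicate 2, 5 without 5C replicate 1 and 5 without 5C replicate 3), against 3. With the longest coding transcript as length, levels were 136 for *Igfbp2*, 63.0 for *Igfbp4* and 14.8 RPKM for *Igfbp3*, in the same order. The causes of these shifts were not tested. In the fit with a replicate block, *Igfbp5* was -0.50 (p 0.00937 and adjusted p 0.888 in edgeR), 782 genes had an unadjusted p under 0.05, and no DEG was called. *Igfbp6* had 1 to 9 counts and *Igfbp7* 8 to 38 counts in a library, which limits their precision.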
